A study of Mus musculus with 22 samples.

Results

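The mitochondrial SLC25 carriers of brown adipose tissue (BAT) were followed across 6 groups of mice. Members were the protein-coding genes whose mouse symbol starts with Slc25a, found by matching the gene identifiers of both count tables to GENCODE symbols. There were 47 such genes among 55487 identifiers, and each of the 47 was in both tables. A pseudogene of Slc25a5 carried the same prefix and was left out. All 22 mice were labelled male. The untreated cohort held 5 CPEB2-WT and 5 CPEB2-KO mice, taken at 21-25 weeks of age with no virus, and per the study food was withheld for some hours before BAT was collected. In the rescue cohort, mice of both genotypes received a recombinant AAV in interscapular BAT at 16 weeks of age and were sampled 9 weeks later, with 3 mice in each of 4 groups. These were AAV-GFP in WT, the same virus in KO, AAV-PRDM16 in WT and AAV-PRDM16 in KO, named below as AAV-GFP WT and so on. Per the study the CPEB2-KO is a global knockout, so it was not confined to a single cell type of the tissue. Every mouse of the rescue cohort, the AAV-GFP controls included, carried a virus and an injection.

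The SLC25 proteins span the inner mitochondrial membrane and exchange nucleotides, phosphate, organic acids, amino acids, acylcarnitines and cofactors between the cytosol and the matrix. Uncoupling protein 1 (UCP1), which lets protons leak through that membrane to make heat, belongs to the same protein family but carries another symbol. In BAT, fuel for this process comes largely from fatty acids, which cross the inner membrane as acylcarnitines, while citrate leaves the matrix to feed fatty acid synthesis. CPEB2 is an RNA-binding protein that regulates translation of its target mRNAs, and PRDM16 is a transcriptional regulator of brown fat identity. The study asked how loss of CPEB2 alters BAT and whether PRDM16 supplied by AAV restores it.

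Libraries held 55320927 to 162721202 counts in the untreated cohort and 61636889 to 143005309 in the rescue cohort. The carriers together took 0.311% to 0.557% of the counts in the former and 0.304% to 0.403% in the latter. In the rescue cohort the targeted gene followed the labels, with Cpeb2 between 10.5 and 14.0 CPM (counts scaled to the size of each library) in the 6 WT libraries and between 4.33 and 5.55 CPM in the 6 KO libraries. The untreated cohort had 1 exception. Cpeb2 was 11.7 CPM in the library labelled KO mouse 1, within the WT range of 7.69 to 14.3 CPM, and 2.10 to 5.78 CPM in the other 4 labelled KO. Y-linked transcripts were nearly absent and Xist was abundant in untreated WT mice 3 and 5 and KO mice 1, 3, 4 and 5, although all were labelled male. The only untreated WT libraries with Y-linked transcripts above 190 CPM and no Xist above 0.1 CPM were WT mice 1 and 2. These 2 also stood apart from the other 8 in the summed level of 12 genes of fatty acid synthesis. Y-linked transcripts were also present in WT mouse 4 (116 CPM, Xist 14.0 CPM) and in KO mouse 2 (77.1 CPM, Xist 1.65 CPM). More libraries labelled WT than KO thus carried Y-linked transcripts, and this difference cannot be fully told apart from genotype in the untreated cohort. Untreated groups are therefore named by their labels only. The 12 brown fat markers were all detected in both cohorts, and their summed level was 4660 to 13871 CPM in the untreated and 4086 to 7582 CPM in the rescue libraries. Because the tissue was sequenced in bulk, fewer cells of a type and less RNA per cell cannot be told apart in any value given here.

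Slc25a20, the carnitine-acylcarnitine carrier that brings long-chain acylcarnitines into the matrix, was the member that passed the test in the genotype comparison of the rescue cohort. Its gene lies on chromosome 9 of GRCm38.p6, on the plus strand from 108662088 to 108684641. The 202 bases before the GENCODE start, chr9:108661886-108662087, are shown here, with a match to the GABP motif CCGGAAGT in capitals. Whether these bases regulate the gene was not tested.
Slc25a20 upstream: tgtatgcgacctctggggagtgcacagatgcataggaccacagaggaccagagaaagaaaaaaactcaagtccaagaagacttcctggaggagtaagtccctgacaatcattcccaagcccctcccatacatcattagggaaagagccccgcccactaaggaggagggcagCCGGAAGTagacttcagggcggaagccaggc
The sequence is taken from RefSeq's promoter window for the same build. The match lies 31 bases before the GENCODE start and 79 bases before the RefSeq start. Promoter windows, from 250 bases before to 50 after a RefSeq start, were found for 36 of the 47 members, 46 windows in all. On either strand, these letters occur in 1 of the 46 windows (2.17%) and in 3.89% of all 32851 windows. The other motifs searched were the cAMP response element TGACGTCA, found in windows of Slc25a25 and Slc25a36, the sterol element TCACNCCAC, found for Slc25a18, the NRF1 element, found for Slc25a3 and Slc25a31, and the ERR element TNAAGGTCA and the PPAR direct repeat, found for no member. They occur in 1.79%, 1.24%, 4.60%, 1.28% and 0.0396% of all windows.

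The carriers ranged in level from none detected to a group mean of 562 CPM, that of Slc25a1 in untreated KO mice. In the untreated cohort 11 members averaged at least 100 CPM, 28 at least 10 CPM and 8 under 1 CPM. In the rescue cohort the counts were 12, 26 and 9. Levels of different genes were set side by side per kilobase of exon. Slc25a1, Slc25a5 and Slc25a4 stood at the top of both cohorts, at 208, 144 and 139.7 CPM per kilobase in the untreated and 161, 118 and 95.3 CPM per kilobase in the rescue cohort. Slc25a20 was also among the 6 highest in both, Slc25a39 in the untreated and Slc25a51 in the rescue cohort.

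A few members were at or near 0 in every library. Slc25a21, a carrier of oxodicarboxylates, and Slc25a54 had 0 counts in all 22 libraries. In a single library a 0 was taken to leave room for an expected count of up to 3 by counting error alone. Slc25a41 reached at most 9 counts and Slc25a43 at most 26. Slc25a31, the ADP/ATP carrier of testis, had 0 to 22 counts in the untreated libraries and 0 to 69 in the rescue libraries. The filter on low counts kept 42 members in the untreated cohort and 43 in the rescue cohort, since Slc25a31 passed it in the rescue cohort. It was kept there mainly for its counts in WT libraries, 9 to 41 under AAV-GFP and 0 to 69 under AAV-PRDM16. The KO libraries had 0 to 24 and 0. Its being lower in KO was therefore partly set by the filter, and it adds no support to the counts of lower members below that include it.

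**Figure D1:**
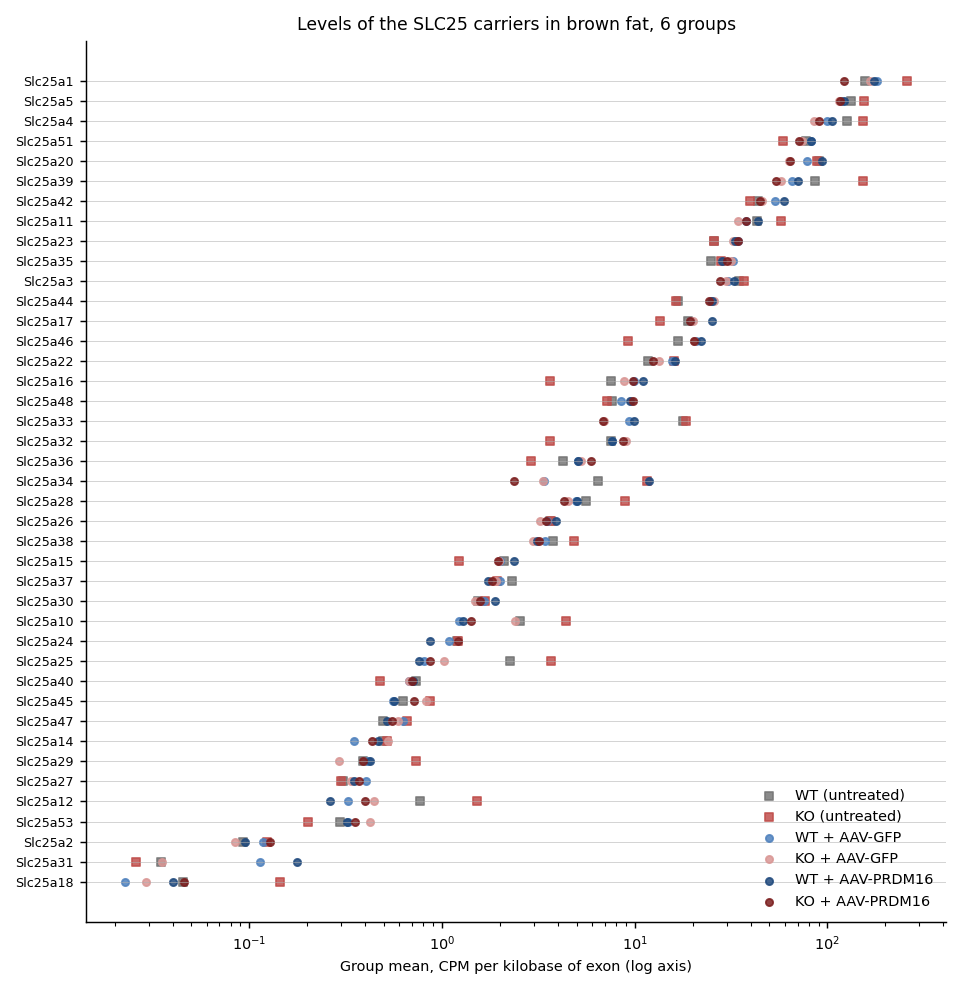
Group means of 41 SLC25 carriers in CPM per kilobase of exon, on a log axis, for the 6 groups (squares, untreated, n = 5; circles, rescue cohort, n = 3). Members under 0.1 CPM per kilobase in all groups and 1 other are not drawn, nor is Slc25a31 in AAV-PRDM16 KO, where it is at 0. Slc25a1, Slc25a5 and Slc25a4 are highest.

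Slc25a1 exports citrate from the matrix to the cytosol. Its levels in mice 1 to 5 were 409, 541, 176, 384 and 182 CPM in WT and 353, 166, 860.4, 273 and 1159 CPM in KO. In the rescue cohort they were 474, 345 and 356 CPM in AAV-GFP WT, 282, 477 and 376 CPM in AAV-PRDM16 WT, 435, 552 and 93.2 CPM in AAV-GFP KO, and 237, 439 and 116 CPM in AAV-PRDM16 KO. The KO groups held both the highest and the lowest libraries, and no pair of groups compared was separated. Genotype differences were 0.73 (SE 0.521) in log2 in the untreated cohort, -0.12 (SE 0.542) under AAV-GFP and -0.52 (SE 0.544) under AAV-PRDM16, with adjusted p of 0.445, 0.981 and 0.732 by edgeR's quasi-likelihood test.

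Enzymes and regulators of the path from citrate to fatty acids varied with the same libraries in the rescue cohort. AAV-GFP KO mouse 3 and AAV-PRDM16 KO mouse 3, the 2 libraries of that cohort with the least Slc25a1, also had the lowest summed level of 12 such genes, at 23091 and 31582 CPM against 51435 to 105747 CPM in the other 10. Fasn, the fatty acid synthase, was 1842 and 3271 CPM there. In the untreated cohort KO mice 3 and 5 had the most Slc25a1. Their summed levels were 50191 and 45182 CPM, below the 80326 and 81366 CPM of WT mice 1 and 2. Much of these sums came from 1 gene, Scd1, at 48468 and 44892 CPM in WT mice 1 and 2. Scd1 was 23058 and 10098 CPM in KO mice 3 and 5. Fasn was highest in KO mouse 5, at 27683 CPM, and was 18850 CPM in KO mouse 3. In WT mice 1 and 2 Fasn was 20388 and 22907 CPM, and in the rest 2783 to 8579 CPM. Of the 12 genes, 5 were lower in KO BATs on the mean over both viruses and 8 in the untreated cohort, and 0 passed an adjusted p of 0.05 in either.

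**Figure D2:**
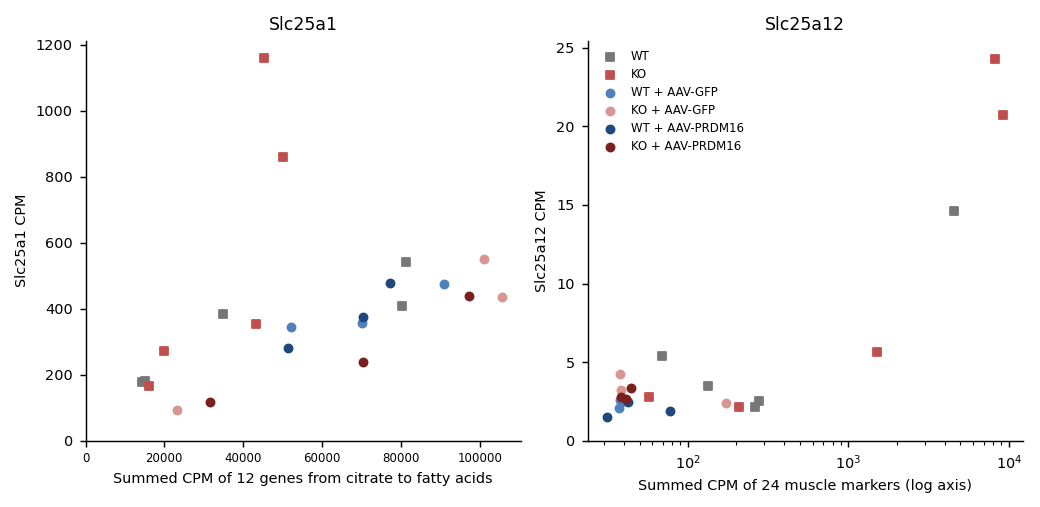
Each point is 1 library. Left, Slc25a1 in CPM (y) against the summed CPM of 12 genes from citrate to fatty acids (x). Right, Slc25a12 in CPM (y) against the summed CPM of 24 markers of mature skeletal muscle (x, log axis). The 2 rescue libraries lowest in Slc25a1 lie at the lower left of the first panel, and the 3 libraries above 14 CPM of Slc25a12 lie at the right of the second.

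The adenine nucleotide carriers Slc25a4 and Slc25a5 exchange matrix ATP for cytosolic ADP. Slc25a4 was 226, 247, 407, 285 and 331 CPM in untreated WT and 400.0, 471, 290.1, 348 and 283 CPM in untreated KO mice. Slc25a5 was 161, 165, 221, 241 and 302 CPM in WT and 185, 154, 318, 279 and 337 CPM in KO mice. Both pairs of groups overlapped widely. Slc25a4 in the rescue cohort was 245, 214 and 246 CPM in AAV-GFP WT, 215, 198 and 190.2 CPM in AAV-GFP KO, 233, 242 and 272 CPM in AAV-PRDM16 WT, and 198, 219 and 219 CPM in AAV-PRDM16 KO. The KO libraries lay below the WT libraries under AAV-PRDM16 and overlapped them in 1 library under AAV-GFP. Slc25a5 was 171 to 217 CPM over all 12 libraries of that cohort with group means of 190.0 to 201 CPM. The log2 genotype difference on the mean over both viruses was -0.23 (SE 0.0710, adjusted p = 0.105) for Slc25a4 and -0.04 (SE 0.0765, adjusted p = 0.823) for Slc25a5. Slc25a4 passed by DESeq2 (adjusted p = 0.0320) and by limma-voom (adjusted p = 0.0208).

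Slc25a51, the mitochondrial NAD carrier, was 473, 477, 325, 314 and 533 CPM in untreated WT and 387, 214, 370.4, 371 and 277 CPM in untreated KO mice. Its rescue libraries ranged from 363 to 572 CPM, and both genotypes overlapped under each virus.

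The untreated cohort compared CPEB2-KO with CPEB2-WT BATs without a virus. None of the 42 members tested passed an adjusted p of 0.05, where 0% of the 17869 genes tested passed. DESeq2 and limma-voom also called 0 members. Here and wherever below these 2 tools called 0 members, their share of all genes is not given. Those counts of 0 are not read as a result about the members. At an unadjusted p under 0.05, 2 members were higher (4.76%, against 4.99% of all genes) and 5 were lower (11.9%, against 10.9% of all genes). At the thresholds the study used, a 2-fold change and an adjusted p of 0.5, 1 member was higher (Slc25a18, a glutamate carrier, under 1 CPM) and 2 were lower, where 6.04% of all genes were higher and 4.72% lower. The groups did not overlap for 0 of the 42 members and for 1.4% of all genes. At these thresholds the higher members were 2.38% of those tested and the lower members 4.76%. These are too few members to be read as a difference from all genes. The study applied its thresholds with another tool, iDEP, so its own counts of genes are not those given here. The count at the study's thresholds was 0 without WT mice 1 and 2 and 0 with Y-linked transcripts as a covariate, and it also fell to 0 when WT mouse 1, WT mouse 2 or KO mouse 5 alone was left out, and rose to 5 or 6 without WT mouse 3, WT mouse 4, KO mouse 1 or KO mouse 2. Lower members numbered 15 of 42 (35.7%), where 48.2% of all genes were lower. The median log2 difference was 0.08 over the members and 0.04 over all genes tested.

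The 5 lower members and 2 higher members below were named after their values were seen. The 2 at the study's thresholds were Slc25a16, linked to coenzyme A in the matrix, at 36.4 ± 14.9 CPM in WT and 17.5 ± 7.70 CPM in KO (SD, n = 5), and Slc25a32, a folate or FAD carrier, at 45.8 ± 23.9 and 22.2 ± 9.30 CPM. Their log2 differences were -1.06 (SE 0.359) and -1.05 (SE 0.415), each with an adjusted p of 0.305. Slc25a15, the ornithine carrier, was 11.8 ± 2.98 CPM in WT and 6.90 ± 1.61 CPM in KO. Slc25a36, a pyrimidine nucleotide carrier, was 40.8 ± 8.62 and 27.7 ± 7.28 CPM, and Slc25a46, an outer-membrane relative that takes part in mitochondrial dynamics, was 90.9 ± 29.2 and 49.8 ± 22.8 CPM. Slc25a28, which imports iron, was 20.9 ± 3.28 CPM in WT and 33.3 ± 9.11 CPM in KO, and Slc25a10, the dicarboxylate carrier, was 8.73 ± 2.74 and 15.3 ± 5.03 CPM. Every one of these 7 pairs of groups overlapped.

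These differences ran with the base composition of the transcripts. Over the 42 members, the log2 difference and the GC content of the longest transcript had a Spearman correlation of 0.66, where all 17838 genes with a value had 0.58. These are descriptions across genes of the same libraries. Of the 21 members with the higher GC content 18 were higher in KO, with a median of 0.41, and of the other 21 only 9 were, with a median of -0.03. When trends in GC content and length were taken out of each library, an alternative chosen after seeing the data, the correlation over the members was -0.06. Slc25a39 then moved from 0.82 to 0.10, Slc25a1 from 0.73 to -0.19, Slc25a16 from -1.06 to -0.64 and Slc25a32 from -1.05 to -0.33, and 0 members met the study's thresholds. Slc25a12 stayed near its value, at 0.99 and 1.07. In the rescue cohort the same correlation was -0.24 over 43 members on the mean over both viruses and -0.16 over all genes.

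**Figure D3:**
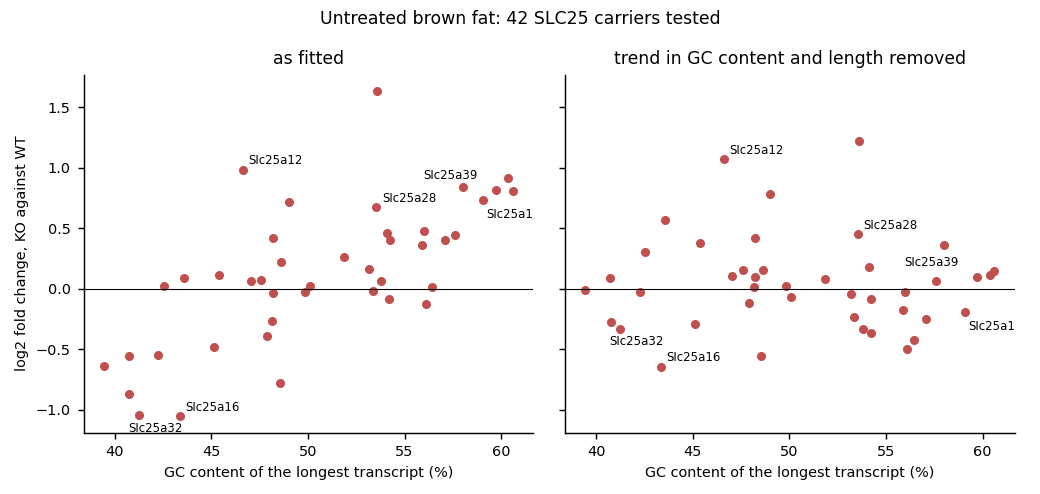
Log2 fold change of KO against WT in untreated BAT (y) against GC content of the longest transcript in percent (x) for the 42 SLC25 carriers tested, as fitted (left) and after trends in GC content and length were taken out (right). The rise from low to high GC content on the left is not seen on the right, and Slc25a12 stays near 1 in both.

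Slc25a12, known as aralar, exchanges matrix aspartate for cytosolic glutamate in the malate-aspartate shuttle and is abundant in muscle. In untreated mice it was 2.16, 2.51, 14.6, 5.41 and 3.45 CPM in WT and 24.3, 20.7, 2.16, 2.76 and 5.61 CPM in KO. WT mouse 3 and KO mice 1 and 2 were high, and the same 3 libraries had the most of the 24 skeletal muscle markers, at 4530, 8252 and 9186 CPM in sum against 57.5 to 1518 CPM in the other 7. All 24 markers were detected and 24 of 24 were higher in KO, with 0 passing the test. Their part in the Slc25a12 values was not tested. The log2 difference of Slc25a12 was 0.99 (SE 0.724, adjusted p = 0.458), and -0.01 by limma-voom with quality weights. The muscle sum in the rescue cohort was 31.5 to 77.0 CPM in 11 libraries and 173.8 CPM in AAV-GFP KO mouse 1, where Slc25a12 was 2.37 CPM.

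The rescue cohort gave the genotype comparison under each virus and on the mean over both. On that mean, 1 of 43 members (2.33%) passed an adjusted p of 0.05, as did 2.18% of all 18899 genes. At an unadjusted p under 0.05, 2 members were higher (4.65%, against 9.54% of all genes) and 7 lower (16.3%, against 8.76%), Slc25a31 with its few counts among the latter. DESeq2 and limma-voom each called 5 members (11.6%), where they called 8.38% and 8.86% of all genes. Slc25a12, named after its value was seen, was higher in KO on that mean. Its log2 difference was 0.40 to 0.63 over all settings, and it passed in at least 1 alternative. The largest log2 rise on that mean was 1.17, in a member under 1 CPM, and 0.56 among members at or above 1 CPM. Lower members numbered 28 of 43 (65.1%) where 48.4% of all genes were lower, and the median log2 difference was -0.08 over the members and 0.01 over all genes. Under AAV-GFP alone edgeR called 0 members, and 0.0529% of all genes, with 0 members by DESeq2 or limma-voom. There 2 members were higher (4.65%, against 4.98% of all genes) and 3 lower (6.98%, against 4.2%) at an unadjusted p under 0.05. Under AAV-PRDM16 edgeR called 0 members, and 0.0476% of all genes, with 3 members (6.98%) each by DESeq2 and by limma-voom, which called 3.28% and 3.99% of all genes. There 1 member was higher (2.33%, against 6.92% of all genes) and 9 lower (20.9%, against 6.8%) at an unadjusted p under 0.05, with Slc25a31 among the 9.

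Slc25a20 was the member called. It was 326, 431 and 386 CPM in AAV-GFP WT and 306, 288 and 319.9 CPM in AAV-GFP KO. Under AAV-PRDM16 it was 499, 426 and 436 CPM in WT and 292, 316 and 327 CPM in KO. The genotypes were separated under each virus, and over all 12 libraries the highest KO library lay just above the lowest WT library. The log2 difference was -0.43 (SE 0.0820, adjusted p = 0.0253, edgeR) on the mean over both viruses, from 417 to 308 CPM, -0.32 (SE 0.116, adjusted p = 0.431) under AAV-GFP and -0.54 (SE 0.116, adjusted p = 0.102) under AAV-PRDM16. By edgeR the fall passed on the mean only, and under AAV-PRDM16 it also passed by DESeq2 (adjusted p = 0.00104) and limma-voom (adjusted p = 0.0120). Leaving out 1 library at a time gave -0.38 to -0.48 with adjusted p of 0.0173 to 0.0788, and the call was lost without AAV-GFP WT mouse 2 or 3, AAV-PRDM16 WT mouse 1 or 3, AAV-GFP KO mouse 2 or AAV-PRDM16 KO mouse 1. In untreated mice Slc25a20 was 375, 379, 432, 378 and 618 CPM in WT and 374, 181, 576, 437 and 564 CPM in KO, a log2 difference of -0.03 (SE 0.317, adjusted p = 0.960) between overlapping groups.

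Other parts of the carnitine system were listed beside it. Of 5 genes, 4 were lower in KO BATs of the rescue cohort on the mean over both viruses, with a median log2 difference of -0.39, and 1 passed the test (against 48.4% lower and 2.18% passing over all genes). That was Slc22a5, which imports carnitine across the plasma membrane and is named after its value was seen, at 53.5, 61.6 and 61.3 CPM in AAV-GFP WT, 34.1, 40.9 and 47.1 CPM in AAV-GFP KO, 58.4, 50.7 and 55.2 CPM in AAV-PRDM16 WT and 42.8, 45.2 and 34.5 CPM in AAV-PRDM16 KO. All 6 KO libraries lay below all 6 WT libraries, with a log2 difference of -0.48 (SE 0.0949, adjusted p = 0.0297). Crat, the carnitine acetyltransferase, and Cpt2, the matrix carnitine palmitoyltransferase, had log2 differences of -0.40 and -0.39 with adjusted p of 0.0514 and 0.0575. In the untreated cohort 2 of the 5 were lower and 0 passed.

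**Figure D4:**
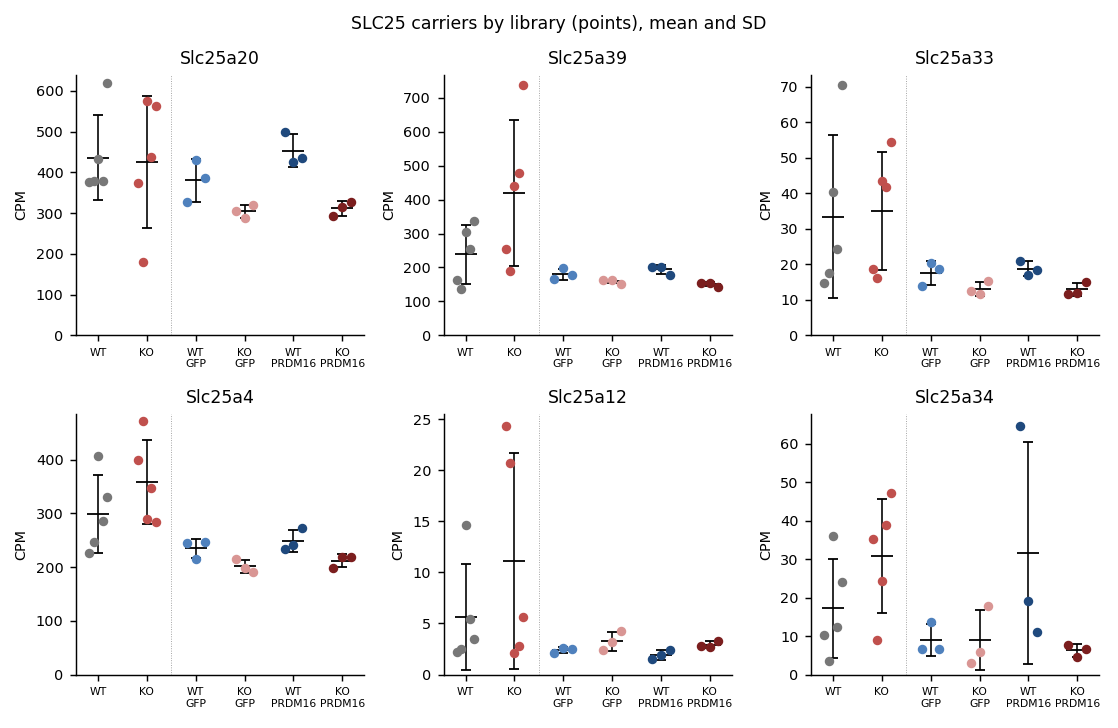
CPM of 6 SLC25 carriers in every library (points) with group mean and SD (bars), untreated mice left of the dotted line (n = 5) and the rescue cohort right of it (n = 3, GFP or PRDM16 virus). Slc25a20 and Slc25a39 are lower in KO than in WT under each virus, and the untreated groups overlap for all 6 genes.

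Slc25a39, which carries glutathione into mitochondria, was the member whose 6 KO libraries all lay below its 6 WT libraries in the rescue cohort, as 2.71% of all genes did in either direction. It was 165, 198 and 177 CPM in AAV-GFP WT, 162, 161 and 152 CPM in AAV-GFP KO, 202, 202 and 178 CPM in AAV-PRDM16 WT, and 154, 153 and 143 CPM in AAV-PRDM16 KO. The log2 difference on the mean over both viruses was -0.28 (SE 0.0674, adjusted p = 0.0555) by edgeR, short of the threshold, with adjusted p of 0.00217 by DESeq2 and 0.0200 by limma-voom. Under AAV-PRDM16 alone Slc25a39 also passed by DESeq2 (adjusted p = 0.00927) and limma-voom (adjusted p = 0.0278), not by edgeR (adjusted p = 0.147). After trends in GC content and length were taken out it was -0.13 (adjusted p = 0.345). In untreated mice the value was 162, 135, 305, 253 and 335 CPM in WT and 253, 189, 439, 478 and 739 CPM in KO, a log2 difference of 0.82 (SE 0.390, adjusted p = 0.318) in the other direction.

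Slc25a33, a pyrimidine nucleotide carrier, was 13.7, 20.4 and 18.6 CPM in AAV-GFP WT, 12.4, 11.6 and 15.4 CPM in AAV-GFP KO, 21.0, 17.0 and 18.4 CPM in AAV-PRDM16 WT, and 11.6, 12.0 and 15.1 CPM in AAV-PRDM16 KO. The KO libraries lay below WT under AAV-PRDM16 and overlapped them in 1 WT library under AAV-GFP. The log2 difference was -0.48 (SE 0.119), with an adjusted p of 0.0577 over all 12 libraries, 0.0343 without AAV-GFP WT mouse 1 and 0.0475 without AAV-GFP KO mouse 3. Slc25a33 passed on the mean by DESeq2 (adjusted p = 0.00568) and limma-voom (adjusted p = 0.00670), and under AAV-PRDM16 by limma-voom (adjusted p = 0.0290). Of the exonic bases of Slc25a33, 14.9% overlap an antisense gene, Gm13068, whose reads could not be told apart here.

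Without overlap between genotypes under AAV-GFP, 1 member was higher (2.33%, against 6.51% of all genes) and 4 were lower (9.30%, against 6.88%). The higher member was Slc25a53, of no assigned substrate, at 2.42, 2.66 and 2.73 CPM in WT and 3.28, 3.60 and 3.26 CPM in KO, a log2 difference of 0.38 (SE 0.183). The lower members were Slc25a20, Slc25a39, Slc25a26 and Slc25a38. Slc25a26, the S-adenosylmethionine carrier, was 16.8, 17.1 and 16.6 CPM in WT and 14.8, 15.5 and 16.4 CPM in KO, a log2 difference of -0.11. Slc25a38, a mitochondrial glycine importer needed for heme synthesis, was 9.38, 9.68 and 9.08 CPM in WT and 7.87, 8.35 and 8.18 CPM in KO.

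Under AAV-PRDM16, 2 members were higher without overlap (4.65%, against 11.5% of all genes) and 10 were lower (23.3%, against 11.2%). Slc25a12 was 1.49, 1.87 and 2.43 CPM in WT and 2.79, 2.65 and 3.32 CPM in KO, and Slc25a36 was 50.6, 49.1 and 46.4 CPM in WT and 56.1, 54.5 and 59.4 CPM in KO. Their log2 differences were 0.59 (SE 0.249, adjusted p = 0.318) and 0.22 (SE 0.102, adjusted p = 0.371). The 10 lower members were Slc25a34, Slc25a33, Slc25a20, Slc25a42, Slc25a39, Slc25a17, Slc25a3, Slc25a4, Slc25a28 and Slc25a46, in order of size from -2.31 to -0.11. Slc25a42, the coenzyme A carrier, was 381, 352 and 343 CPM in WT and 266, 214 and 324 CPM in KO. Slc25a3, which brings phosphate into the matrix for ATP synthesis, was 185, 178 and 179 CPM in WT and 161.6, 162.8 and 134.8 CPM in KO. Slc25a17, which carries cofactors into peroxisomes, was 77.3, 69.0 and 67.6 CPM in WT and 58.6, 54.3 and 52.9 CPM in KO. Under AAV-GFP the genotypes overlapped for Slc25a42, Slc25a3 and Slc25a17, so the separation of these 3 was seen under AAV-PRDM16, and the interaction of genotype and virus did not pass for any member.

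**Figure D5:**
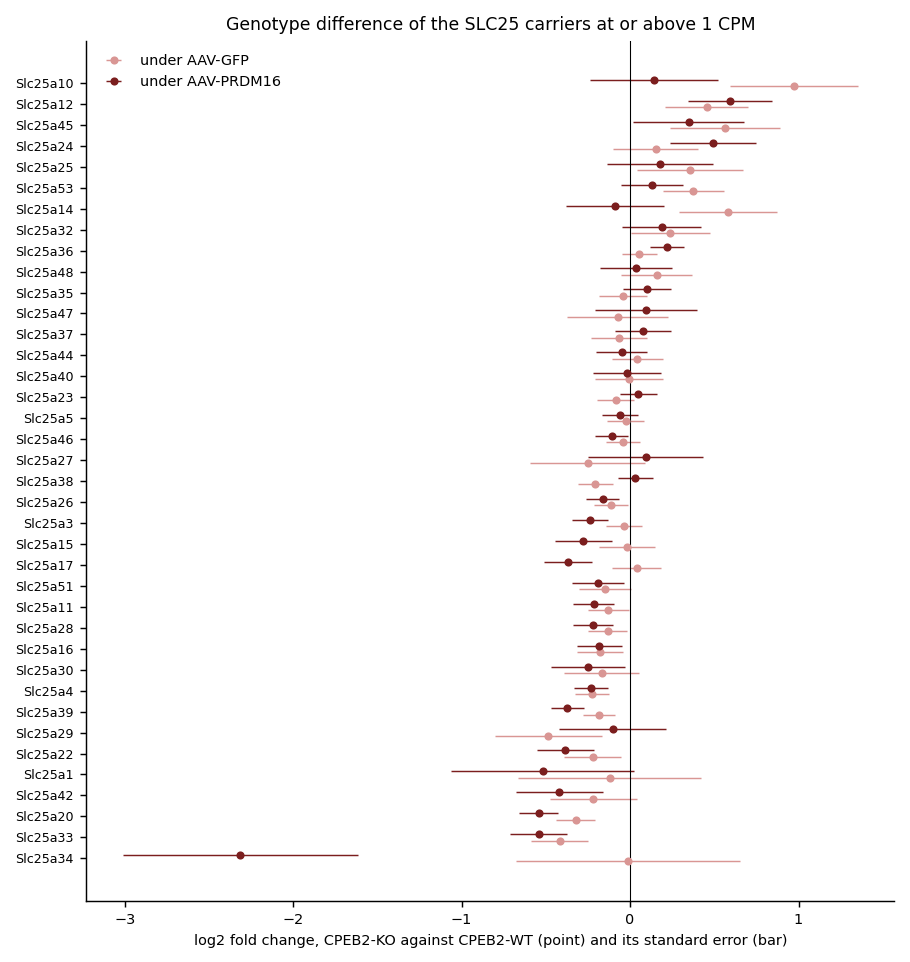
Log2 fold change of KO against WT (points) with standard error (bars) for 38 SLC25 carriers at or above 1 CPM in the rescue cohort, under AAV-GFP and under AAV-PRDM16, ordered by the mean over both viruses. Slc25a34 under AAV-PRDM16 is at -2.31, and the other members lie within 1 of 0.

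Slc25a34, an orphan member, had the greatest spread. It was 64.5, 19.0 and 11.2 CPM in AAV-PRDM16 WT but 7.80, 4.50 and 6.75 CPM in AAV-PRDM16 KO, 6.58, 13.7 and 6.75 CPM in AAV-GFP WT, and 2.95, 5.98 and 17.8 CPM in AAV-GFP KO. Mouse 1 of AAV-PRDM16 WT stood far above all others. The log2 genotype difference was -2.31 (SE 0.697, adjusted p = 0.184) under AAV-PRDM16 and -0.01 (SE 0.664, adjusted p = 0.998) under AAV-GFP, and the interaction, -2.30 with an unadjusted p of 0.0322, did not pass after adjustment. Without AAV-PRDM16 WT mouse 1 they were -1.25 (adjusted p = 0.602) and -1.24. Ucp1 was 0.63 lower in log2 in KO than in WT under AAV-PRDM16 and 0.15 higher under AAV-GFP, with adjusted p of 0.402 and 0.949.

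PRDM16 delivery was compared with GFP within each genotype. Prdm16, whose counts include the viral transcript, was 23.9, 40.2 and 35.8 CPM in AAV-GFP WT, 122, 119 and 45.9 CPM in AAV-PRDM16 WT, 31.7, 34.5 and 31.7 CPM in AAV-GFP KO, and 69.2, 128 and 73.6 CPM in AAV-PRDM16 KO. Every library given PRDM16 lay above every library given GFP, by the least in AAV-PRDM16 WT mouse 3. By edgeR 0 members passed in WT, in KO or on the mean of both genotypes, where 0%, 0% and 0.037% of all genes passed, and DESeq2 and limma-voom also called 0. At an unadjusted p under 0.05, 2 members were higher and 0 lower in WT (4.65% and 0%, against 2.1% and 5.19% of all genes), 0 higher and 1 lower in KO (0% and 2.33%, against 1.31% and 5.1%), and 0 on the mean of both, where 2.07% of all genes were higher and 7.02% lower. The 1 in KO was Slc25a31, at few counts. In WT 2 members were higher without overlap and 0 lower (4.65% together, against 14.2% of all genes), namely Slc25a11, the oxoglutarate carrier, at 71.1, 87.0 and 81.4 against 88.0, 94.0 and 95.9 CPM, and Slc25a16, at 45.1, 49.7 and 48.1 against 57.4, 49.9 and 52.5 CPM. In KO 1 was higher and 1 lower (4.65%, against 9.43%), with Slc25a38 at 8.78, 9.05 and 8.45 CPM and Slc25a53 at 3.20, 2.95 and 2.26 CPM under AAV-PRDM16. On the mean of both genotypes no member was separated, where 0.561% of all genes were. The interaction of genotype and virus called 0 members and 0% of genes, and 0 members by the other tools. At an unadjusted p under 0.05, 0 members were above 0 and 1, Slc25a34, was below (2.33%), where 1.59% and 1.6% of all genes were. Whatever their p, 31 of 43 members were below 0 for the interaction (72.1%, against 50.3% of all genes). Under PRDM16 against GFP, 15 of 43 were lower in WT (34.9%, against 52.1%) and 24 of 43 in KO (55.8%, against 51.5%).

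AAV-PRDM16 KO was also set against AAV-GFP WT, which shares libraries with the comparisons above. No member passed, where 0.00529% of all genes did, and 0 did by DESeq2 or limma-voom. At an unadjusted p under 0.05, 0 members were higher and 4 lower (9.30%), where 3.5% of all genes were higher and 4.42% lower. Groups did not overlap for 5 members (11.6%, against 13.2% of all genes). Slc25a12 was higher, and Slc25a39, Slc25a38, Slc25a35 and Slc25a31 were lower. Slc25a35, of no assigned role, was 117, 116 and 124 CPM in AAV-GFP WT and 108, 111 and 116 CPM in AAV-PRDM16 KO, and 31.3% of its exonic bases overlap Rangrf on the other strand. Slc25a31 had 9 to 41 counts in AAV-GFP WT and 0 in all 3 AAV-PRDM16 KO libraries, so no fold is given. It passed the filter mainly through WT libraries, so its separation is no result of its own.

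Slc25a22, a glutamate carrier at 74.3 to 97.1 CPM in the rescue group means, had a log2 difference of -0.30 (SE 0.120, adjusted p = 0.203) on the mean over both viruses. Slc25a13, the liver form of the aspartate carrier, had 4 to 70 counts per library. Its means were 0.0764 CPM in AAV-GFP WT, 0.292 CPM in AAV-GFP KO, 0.0921 CPM in AAV-PRDM16 WT and 0.122 CPM in AAV-PRDM16 KO. Slc25a44, which brings branched-chain amino acids into the mitochondria of brown fat, was 89.1 ± 4.52 CPM in AAV-GFP WT, 91.8 ± 14.1 CPM in AAV-GFP KO, 90.3 ± 2.23 CPM in AAV-PRDM16 WT and 87.2 ± 18.5 CPM in AAV-PRDM16 KO (SD, n = 3), a log2 difference of -0.00 (SE 0.107).

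The remaining members were given by group mean and SD (n = 5 untreated, n = 3 rescue), and none passed the test in any comparison. The calcium-regulated carriers of ATP-Mg and phosphate differed widely in level. Slc25a23 was 136 ± 50.2 CPM in untreated WT and 137 ± 54.4 CPM in untreated KO, and 172 to 182 CPM in the rescue groups. Slc25a25 was high in some untreated libraries of both genotypes, at 9.05, 8.87, 31.5, 31.5 and 7.62 CPM in WT and 36.5, 44.7, 26.6, 19.0 and 18.5 CPM in KO, and 5.99 to 8.09 CPM in the rescue groups. Slc25a24 was 2.96 to 4.17 CPM in the group means of both cohorts. Among the iron and glutathione carriers, Slc25a37, which imports iron, was 13.9 ± 2.90 CPM in untreated WT, 11.6 ± 2.94 CPM in untreated KO and 10.4 to 12.1 CPM in the rescue groups. Slc25a40, a relative of Slc25a39, was 6.18 ± 1.52 CPM in untreated WT, 3.98 ± 1.51 CPM in untreated KO and 5.65 to 5.96 CPM in the rescue groups. It was far below Slc25a39 in every group. The members close to the uncoupling proteins, Slc25a14, Slc25a27 and Slc25a30, were between 0.830 and 8.57 CPM in all group means. Slc25a29, a carrier of basic amino acids, was 0.765 to 1.92 CPM, and Slc25a2, an ornithine carrier, 0.116 to 0.176 CPM. Slc25a48 was 24.1 to 33.0 CPM, Slc25a45 1.55 to 2.39 CPM and Slc25a47 1.48 to 1.96 CPM.

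Genes that work beside these carriers were counted on the mean over both viruses, where 48.4% of all genes were lower and 2.18% passed. Of 10 enzymes of branched-chain amino acid breakdown, 10 were lower in KO BATs of the rescue cohort and 1 passed the test, Bckdha (log2 difference -0.44, adjusted p = 0.025). Of 14 genes of iron, heme and iron-sulphur cluster metabolism 12 were lower and 2 passed, Iscu and Alad. Of 6 carriers of the inner membrane outside the family 5 were lower and 1 passed, the pyruvate carrier subunit Mpc2 (log2 difference -0.49, adjusted p = 0.019). Of 6 enzymes of the malate-aspartate and glycerophosphate shuttles 3 were lower and 0 passed. Of 5 family relatives under other symbols 4 were lower and 1, Ucp2, was higher and passed (0.83, adjusted p = 0.033). The genes that passed were named after their values were seen. Of the 12 brown fat markers 11 were lower and 3 passed. Their sums overlapped, at 4086 to 7582 CPM in WT and 4319 to 5341 CPM in KO. The 12 include Prdm16, whose counts hold the viral transcript, and Ucp1, also counted among the relatives. In the untreated cohort 4 of the 12 were lower in KO and 0 passed. Of 7 macrophage markers 7 were higher, with 2 passing, from sums of 34.9 to 102.8 CPM in WT and 56.5 to 288 CPM in KO. Of 7 white fat markers, 6 were tested, 3 were lower and 1 was higher and passed, with sums of 16.1 to 67.2 CPM in WT and 54.7 to 259 CPM in KO. Whether tissue makeup had a part in the carriers' values was not tested.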

How the data were processed

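Gene counts of 22 mRNA-seq libraries of mouse BAT, 1 per mouse, were analysed. The authors deposited raw counts per gene in 2 tables. Per the labels, base calling used bcl2fastq 2.20 (the study's methods name BCL Convert), trimming Trimmomatic 0.36 and alignment HISAT2 to GRCm38.p6. The counting program, its annotation release and its use of strand are not given in the sources used here, so overlapping antisense genes may share reads. Of 55487 identifiers, 55227 matched GENCODE M21. Members and lists were chosen with earlier results of these data known. The tables were fitted separately. Counts were filtered with filterByExpr, scaled by TMM and fitted in R 4.3.3 with edgeR 4.0.16 (quasi-likelihood test, Benjamini-Hochberg over all genes tested), with 1 model of 2 or 4 groups and no covariate. CPM use the TMM-scaled size of the genes tested, and per-kilobase levels the union of exons. SEs were derived from the log2 fold change and the F statistic. Alternatives were DESeq2 1.42.0, limma-voom (limma 3.58.1) with quality weights, RLE scaling, no filter, leaving out each library, a replicate block, only the groups compared, both untreated libraries that stand apart left out, a covariate for Y-linked transcripts and a trend in GC content and length. Mitochondrial genes took 24.6% to 38.9% of counts. Scripts were tested on simulated data. No pair of libraries in a group agreed within counting noise (32 pairs). Per-library values are given for the 6 members with the highest level per kilobase in each cohort, and for up to 3 higher and 3 lower members of each comparison that had the largest log2 fold change among those with a mean of at least 1 CPM in the higher group and no overlap, plus any called. Of these, 1 member is counted but its values are not reported here. Others were named after their values were seen. Nothing in the labels ties mice to litters, and p-values set the group differences against the spread between these mice.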

Additional observations from a re-analysis of the deposited data

Results flagged for a closer look

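Among 30 groups of 5 untreated libraries examined for a single library far from the other 4 by Dixon's test, 2 stood out. No chance rate is set beside this, since some genes, Slc25a12 among them, were named after their values were seen. The genes also share the same libraries. Slc25a12 in WT mouse 3 was 14.6 CPM, and the next library of that group was 5.41 CPM. That mouse also had 4530 CPM of skeletal muscle markers, the most among the WT libraries. Slc25a20 in WT mouse 5 was 618 CPM, and the next was 432 CPM. That mouse had the highest brown fat marker sum of the WT libraries, at 9270 CPM.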

How the results depend on the processing

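Over all alternatives and comparisons, 61 of 69 counts of members from settings other than leaving out a library, and 101 of 116 from leaving one out, stayed within 1.5 times of the reported count. Most comparisons had a reported count of 0, and a 0 that stayed 0 was included, so these shares say little about stability. The reported counts above 0 changed in several settings, as given below. Under DESeq2 and limma-voom with quality weights 3 members each were called between genotypes under AAV-PRDM16, and 5 each on the mean over both viruses. Leaving out 1 library gave 0 to 2 members on that mean, with 2 without AAV-GFP WT mouse 1 or AAV-GFP KO mouse 3, and 0 in the 6 cases named for Slc25a20. In the untreated cohort the members at the study's thresholds (3 as reported) were 1 with limma-voom, and 0 without WT mice 1 and 2 together, with the Y-linked covariate and after trends in GC content and length were taken out. Leaving out 1 library gave 0 to 6. The log2 differences that changed sign were all in the untreated cohort. Slc25a36 was 0.088 and Slc25a1 -0.19 after GC and length trends were taken out, and Slc25a12 -0.014 under limma-voom. Slc25a20, reported at -0.03, was 0.032 under both DESeq2 and RLE scaling, 0.10 after those trends were taken out, and -0.17 to 0.19 over leaving out 1 library, above 0 without WT mouse 5, KO mouse 1 or KO mouse 2. The cause of these changes was not tested. Same-numbered mice correlated from -0.29 to 0.11 in the untreated and -0.09 to 0.15 in the rescue cohort, and a library correlated best with its own number in 1 of 10 and 14 of 36 cases, so the numbers were not taken as pairs. With the replicate block 1 member, Slc25a20 (adjusted p = 0.0429), was called on the mean over both viruses and 0 in every other comparison. Groups of 3 limit small differences, and the SEs of untreated log2 differences reach 1.38.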
